A study of Homo sapiens with 3 samples.

Results

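The genes described here are the translation initiation factors and elongation factors, with the enzymes named after them. They were chosen by name, as the protein-coding rows of the deposited gene table whose symbol begins with EIF1 to EIF6 or with EEF1 or EEF2, leaving out the separately named repressors EIF4EBP1 and EIF4EBP2 and read-through genes with a hyphen. The rule found 66 genes among 58302 in the table, of which 19817 were protein-coding. The study sequenced 3 RNA libraries of HCT116 cells, a human line grown from a colorectal carcinoma. One library came from cells given DUOX2 siRNA 1, one from cells given DUOX2 siRNA 2 and one from cells given a control siRNA. An siRNA is a short duplex RNA whose guide strand directs cleavage of a matching mRNA, and DUOX2 is an oxidase that makes hydrogen peroxide. The series' design sets cells low in DUOX2 against control cells. No dose, time after transfection or culture is given, and nothing says that the libraries came from separate cultures. The control is a single library and adds no spread of its own. The p-values therefore rest only on the difference between the siRNA libraries, which got different siRNAs, and on spread shared across genes.

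The total count was 19130768 with siRNA 1, 18832672 with siRNA 2 and 17589502 in the control, so that a gene with a count of 0 could still lie at up to 3 counts, or 0.157, 0.159 and 0.171 CPM, the count scaled to the library total. DUOX2 itself had 2, 0 and 2 counts in these libraries, so the target gives no check of the labels. Markers of epithelial cells summed to 480 and 650 FPKM with the siRNAs and 776 FPKM in the control, with 1 of 9 at 0 in every library. Markers of fibroblasts, leukocytes, endothelium and retina, the last being a tissue named in the extraction protocol, each summed to under 1 FPKM in every library. Mitochondrial genes took 12.1% of counts with siRNA 1, 8.83% with siRNA 2 and 8.58% in the control. The part of that difference in the results below was not tested.

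The guide strands that define the groups are shown because every comparison rests on them. They are written 5′ to 3′ with the seed, bases 2 to 8, in capitals and a pair of overhanging T at the end.
DUOX2 siRNA 1: aACCACUAuguuguccucctt
DUOX2 siRNA 2: aUGAAGGAucgcaucauggtt
control siRNA: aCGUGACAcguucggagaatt
No member transcript matched any guide along its 19 paired bases. The longest complementary run was 10 bases for siRNA 1 (in EEF1A2), 10 bases for siRNA 2 (in EEF2) and 9 bases for the control (in EEF1A2). The complement of the seed occurred in transcripts of 12 members for siRNA 1, 24 for siRNA 2 and 12 for the control.

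Translation of most cellular mRNAs starts when the eIF4F complex binds the cap and eIF3 brings in the small ribosomal subunit, which carries eIF1, eIF1A, eIF5 and the eIF2 complex with the initiator tRNA. Phosphorylation of eIF2 by the eIF2 alpha kinases blocks its recharging by eIF2B and lowers initiation. In elongation, eEF1A delivers each aminoacyl-tRNA, the eEF1B subunits recharge eEF1A, eEF2 moves the ribosome by a codon, and eIF5A helps at slow peptide bonds. Many of these genes are strongly expressed in dividing cells, and several have processed copies elsewhere in the genome. Colorectal cancer cells, like other fast-growing cells, depend on a high rate of protein synthesis.

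Together the 66 genes took 308093 counts with siRNA 1, 338019 with siRNA 2 and 324664 in the control. These are 1.61%, 1.79% and 1.85% of the library totals. The share with siRNA 1 was the lowest of the 3 for these gene rows alone. Their named copies, described below, took 1.05% of the total with each siRNA and 0.774% in the control. The order of the shares thus depends on which rows are counted.

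Levels of different genes can be set side by side only per length, and the length behind the deposited FPKM matters here. FPKM is the count scaled to the length of the gene in kilobases and to the library total. The lengths implied by the deposited FPKM equalled, within 1 base, the summed length of all distinct annotated exons of a gene for 92.1% of 13047 genes with at least 50 control counts and for 58 of 63 members. Overlapping exons of different transcripts are then counted again for each version. A gene with many annotated transcripts therefore has a long denominator, and its FPKM is low for its count. The implied length was a median 1.52 times the length of the merged exons over all those genes.

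An elongation factor headed both scales, while by FPKM the initiation factor gene EIF2S2 stood at place 2 with siRNA 1. EEF2, the factor that moves the ribosome along the mRNA, had 231 and 299 FPKM with siRNA 1 and siRNA 2 and 448 FPKM in the control. Among the 66 gene rows, without their copies, it was first in every library on either length. EEF1G, a subunit of the exchange factor of eEF1A, had 107 and 141 FPKM with the siRNAs and 186 FPKM in the control. EEF1A1, the main carrier of aminoacyl-tRNA, had 88.0 and 121 FPKM with the siRNAs and 158 FPKM in the control. The EEF1A1 row held 10.9% and 14.6% of the counts of gene and named copies with the siRNAs and 23.4% in the control. Its place beside EEF2 thus depends on which rows are counted. All 3 genes were lower with each siRNA than in the control, although EEF2 lay near 0 with the GC trend removed and EEF1A1 was higher with its copies added, as given below. EIF3CL, a near-identical duplicate of the eIF3 subunit gene EIF3C, had 104 and 112 FPKM with the siRNAs and 121 FPKM in the control. EIF2S2, the beta subunit of eIF2, had 115 and 108 FPKM with the siRNAs and 112 FPKM in the control. These 5 had the highest mean FPKM.

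In CPM per kilobase of merged exons the order changed for several members. EEF1B2, another exchange subunit for eEF1A, had 245 and 256 CPM per kilobase with the siRNAs and 136 in the control, and was second with siRNA 1, the third with siRNA 2 and place 8 in the control. On the FPKM scale it stood at place 18 in the control. EIF4A1, the RNA helicase of eIF4F, had an implied length of 17097 bases against 5316 bases of merged exons and 1756 bases in its longest transcript. It stood at place 34 with siRNA 1, 32 with siRNA 2 and 49 in the control per kilobase of merged exons, and at place 57 in the control by FPKM. EEF1A2, the form of eEF1A known from muscle and neurons, stood at place 15 by FPKM and 36 by merged exons in the control. Its implied length of 2006 bases was shorter than its 4910 bases of merged exons.

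**Figure D1:**
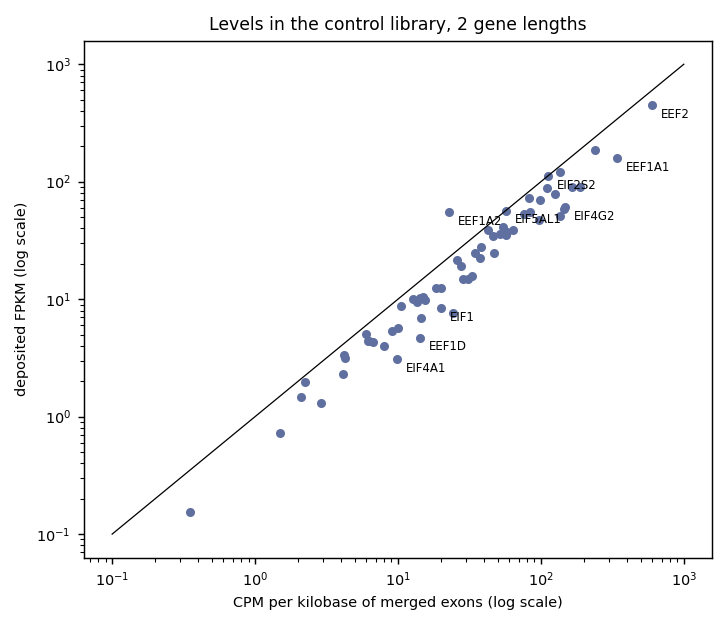
Level of each member with at least 50 control counts in the control library, as CPM per kilobase of merged exons (x axis, log scale) and as deposited FPKM (y axis, log scale). The line marks equal values; most genes lie under it, EIF4A1 and EEF1D far under it, and EEF1A2 above it.

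Of the 66 members, 63 passed the filter on low counts and entered the comparison of the DUOX2 siRNA libraries with the control. EIF1AY and EIF4E1B had no count in any library. EIF4EBP3, a small repressor of cap binding, had 1 and 2 counts with the siRNAs and 7 in the control, while the overlapping read-through gene ANKHD1-EIF4EBP3 had 2026 and 1947 counts with the siRNAs and 3140 in the control. No member passed edgeR's quasi-likelihood test at an adjusted p of 0.05, with 0.0579% of all 17263 genes called. An unadjusted p under 0.05 was reached by 17 members, 12 of them higher and 5 lower with the siRNAs, against 26.0% of all genes, 11.5% higher and 14.5% lower. Of 13251 tested protein-coding genes 3605 reached it, 1290 higher and 2315 lower. DESeq2's Wald test called 2 members, EIF4A1 and EEF1B2, at adjusted p values of 2.07e-05 and 0.0125, with 1.81% of 27020 genes called. The 27020 genes of the Wald test are all those with a count, including genes under the filter and some given no adjusted p. That share is therefore not on the same base as the 63 members or the 17263 genes. A change in RNA per cell and a change in the number of cells carrying it cannot be told apart in bulk RNA.

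By size, 36 members were higher with both siRNAs, 19 were lower with both and 8 differed in direction, against 41.9% of all genes higher and 41.6% lower. Both differences share the control library. Scaled by total count in place of TMM, 30 members were higher with both and 22 lower, against 6273 and 8060 of all 17263 genes. With the trend of GC content removed 26 members were higher and 24 lower, against 6437 and 6031 of 17209 genes. At least 2-fold higher with both siRNAs was 1 member, EIF4A1, and none was 2-fold lower, against 4.00% and 5.05% of all genes. At 1.5-fold, 8 members were higher (EIF4A1, EEF1B2, EIF3J, EIF1AX, EIF5A2, EIF3M, EIF4A2 and EIF2AK3) and 3 were lower (EEF1D, EEF1A2 and EIF5A), against 11.0% and 15.5% of all genes. All members are protein-coding, whereas the shares of all genes include other gene types. Of 13251 tested protein-coding genes, 5087 were higher and 6061 lower with both siRNAs. At 2-fold these were 176 and 733, and at 1.5-fold 855 and 2317. The median of the members' mean log2 fold change was 0.17, beside -0.0019 for all genes and -0.070 for tested protein-coding genes.

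**Figure D2:**
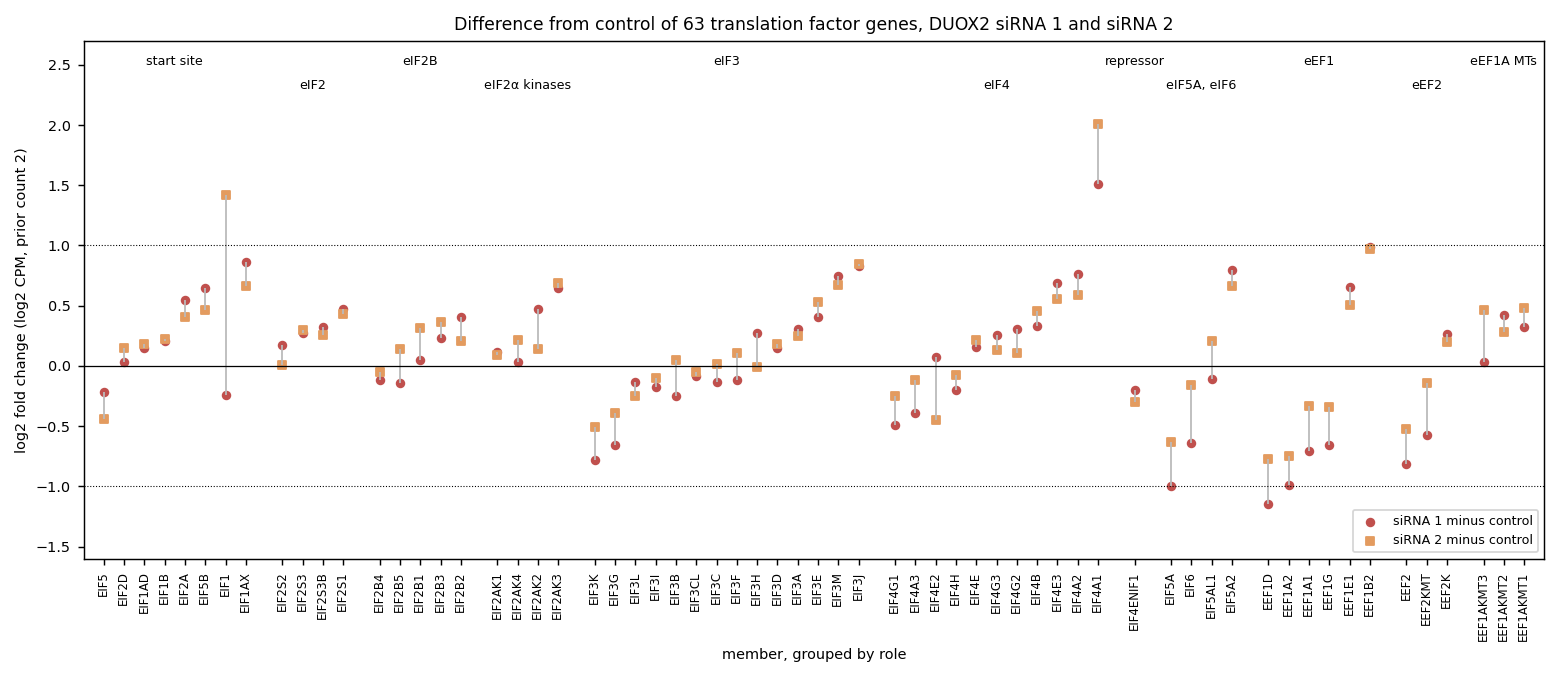
Difference in log2 CPM between each DUOX2 siRNA library and the control (y axis) for the 63 tested members, grouped by role (x axis), with circles for siRNA 1 and squares for siRNA 2. As measured, most pairs lie within 0.25 of each other, EIF1 splits, EIF4A1 stands highest and EEF1D and EEF1A2 lowest, while EEF1A2 is above 0 with the GC trend removed.

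The siRNA libraries differed little from each other over these genes. Of the 63 members, 43 had log2 fold changes within 0.25 of each other with the 2 siRNAs and 61 within 0.5. The shares of all genes within these limits were not computed, so this closeness is not shown to be particular to the members. The widest gap was that of EIF1, which guards the choice of start codon and had 1055 counts with siRNA 1, 3474 with siRNA 2 and 1267 in the control. It was the only member over 2-fold apart between the siRNA libraries, against 6.56% of all genes. EIF1 was 0.844 times the control with siRNA 1 and 2.67 times the control with siRNA 2, so it was high in the library of siRNA 2 alone. Its paralog EIF1B had 592 and 624 counts with the siRNAs and 519 in the control. EIF1 and EIF1B shared no stretch of 50 bases in their coding sequences.

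Among the factors of the start site, 6 of 8 tested members were higher with both siRNAs and 1 lower, against 4 and 3 with the GC trend removed. EIF1AX, the X-linked gene of eIF1A, which stabilizes scanning, had 5984 and 5445 counts with the siRNAs and 3339 in the control (log2 fold change 0.77 ± 0.20 SE, edgeR adjusted p = 0.126). EIF5, which triggers GTP hydrolysis by eIF2 at the start codon, had 4165 and 3710 counts with the siRNAs and 4902 in the control (log2 fold change -0.32 ± 0.19 SE, edgeR adjusted p = 0.324). EIF5 was the member lower with both siRNAs. With the GC trend removed, the log2 fold change was 0.18 for EIF1AX and -0.70 for EIF5. EIF5B, the GTPase of subunit joining, had 11671 and 10650 counts with the siRNAs and 7536 in the control, and was at 0.084 with the GC trend removed.

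All 4 eIF2 genes were higher with both siRNAs, with a median log2 fold change of 0.29, but with the GC trend removed none was higher with both. EIF2S1, the alpha subunit that is phosphorylated in stress, had 5183 and 5239 counts with the siRNAs and 3783 in the control. EIF2S2 had 5818 and 5380 counts with the siRNAs and 5220 in the control. As measured in the gene rows, these were the largest and smallest differences of the complex. With its named copies EIF2S2 had log2 fold changes of 0.37 and 0.26 with the siRNAs. Their mean of 0.31 lay above the 0.29 of EIF2S3, so the smallest difference depends on which rows are counted. Of 5 eIF2B genes, EIF2B2 was highest, with 1691 and 1534 counts with the siRNAs and 1295 in the control, and EIF2B4 lowest, with 680 and 744 counts with the siRNAs and 749 in the control. With the GC trend removed EIF2B2 was at 0.11 and EIF2B4 at 0.020, while EIF2B3 was highest at 0.28 and EIF2B1 lowest at -0.027.

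All 4 eIF2 alpha kinases were higher with both siRNAs, but 2 were with total count scaling and 1 with the GC trend removed. EIF2AK3, known as PERK, the kinase that senses unfolded protein in the endoplasmic reticulum, had 927 and 992 counts with the siRNAs and 600 in the control (log2 fold change 0.67 ± 0.22 SE, edgeR adjusted p = 0.156). EIF2AK1, the heme-regulated kinase, had 8782 and 8935 counts with the siRNAs and 8191 in the control. EIF2AK1 had the smallest measured difference of the 4 kinases. EIF2AK3 was at 0.41 and EIF2AK1 at -0.038 with the GC trend removed.

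Of the 14 eIF3 genes, 5 were higher with both siRNAs, 5 lower and 4 split, with a median log2 fold change of -0.030. The subunits of the complex did not all lie on the same side of the control. EIF3J, a loosely bound subunit that acts in ribosome recycling, had 2816 and 2965 counts with the siRNAs and 1603 in the control (log2 fold change 0.84 ± 0.19 SE, edgeR adjusted p = 0.121). EIF3M had 7416 and 7329 counts with the siRNAs and 4489 in the control. EIF3K had 1317 and 1656 counts with the siRNAs and 2298 in the control (log2 fold change -0.64 ± 0.21 SE, edgeR adjusted p = 0.154). EIF3J and EIF3K were the highest and lowest subunits, and in each of them both siRNA libraries lay on the same side of the control. EIF3J was at 0.37, EIF3M at 0.21 and EIF3K at -0.43 with the GC trend removed. EIF3C and EIF3CL are identical along their aligned coding sequence, and reads cannot be divided between them with certainty. Summed, they had 15296 and 17092 counts with the siRNAs and 16771 in the control.

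The eIF4 factors held the member with the largest difference. EIF4A1 (ENSG00000161960, chromosome 17, 7572706 to 7579005, GRCh38) had 2599 counts with siRNA 1, 3823 with siRNA 2 and 923 in the control. This is 2.85 times and 4.03 times the control (log2 fold change 1.78 ± 0.29 SE, edgeR adjusted p = 0.105). Both siRNA libraries lay above the control, but its exons are shared with other rows of the table, which are described below with its copies. EIF4A2, the other cytoplasmic helicase of the family, had 4385 and 4037 counts with the siRNAs and 2620 in the control. EIF4G1, the scaffold of eIF4F, had 14757 and 18057 counts with the siRNAs and 20966 in the control and was the lowest of 11 tested eIF4 genes with a log2 fold change of -0.37, but stood at 0.15 with the GC trend removed, where EIF4A3 was lowest at -0.45. EIF4E, the cap-binding protein, had 610 and 660 counts with the siRNAs and 554 in the control. EIF4A2 was at 0.20 and EIF4E at -0.28 with the GC trend removed. EIF4ENIF1, a transporter that carries eIF4E into the nucleus and represses bound mRNA, had 381 and 369 counts with the siRNAs and 444 in the control.

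EIF5A, the factor that carries the modified lysine hypusine, and its paralog EIF5A2 stood on opposite sides of the control, by less with the GC trend removed, at -0.30 for EIF5A and 0.12 for EIF5A2. EIF5A (chromosome 17, 7306999 to 7312463) had 4619 and 6179 counts with the siRNAs and 9330 in the control (log2 fold change -0.80 ± 0.21 SE, edgeR adjusted p = 0.128). EIF5A2 had 4332 and 4113 counts with the siRNAs and 2532 in the control (log2 fold change 0.73 ± 0.19 SE, edgeR adjusted p = 0.127). EIF5AL1, which lies on chromosome 10, had 3510 and 4527 counts with the siRNAs and 3828 in the control, so its siRNA libraries lay on either side of the control. The coding stretch around codon 50, the lysine codon that receives hypusine, is shown for the 3 genes, with that codon in capitals, to show how close their sequences are. Positions run from 121 to 180 of the coding sequence.
EIF5A: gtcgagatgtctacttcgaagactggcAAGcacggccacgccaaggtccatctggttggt
EIF5AL1: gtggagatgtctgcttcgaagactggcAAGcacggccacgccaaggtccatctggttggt
EIF5A2: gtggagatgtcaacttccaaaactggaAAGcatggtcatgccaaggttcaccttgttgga
EIF5A and EIF5AL1 were 98.9% identical over the coding sequence and shared 66.3% of its windows of 50 bases, whereas EIF5A and EIF5A2 were 76.2% identical and shared none. Summed with EIF5AL1, EIF5A had 8129 and 10706 counts with the siRNAs and 13158 in the control, a log2 fold change of -0.68 with siRNA 1 and -0.34 with siRNA 2. The sum was thus also below the control with both siRNAs.

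The eEF1 genes split, with 2 of 6 higher and 4 lower with both siRNAs, and 3 on each side with the GC trend removed. EEF1B2 (ENSG00000114942, chromosome 2, 206159585 to 206162928) had 8991 counts with siRNA 1, 9249 with siRNA 2 and 4584 in the control, or 1.99 and 1.96 times the control (log2 fold change 0.98 ± 0.19 SE, edgeR adjusted p = 0.112). The 2 siRNA libraries were nearly equal and both far from the control. EEF1D, another exchange subunit, had 1043 and 1406 counts with the siRNAs and 2340 in the control (log2 fold change -0.95 ± 0.23 SE, edgeR adjusted p = 0.125). EEF1G had 7091 and 9190 counts with the siRNAs and 11348 in the control (log2 fold change -0.49 ± 0.21 SE, edgeR adjusted p = 0.204). The subunits that together recharge eEF1A thus stood on both sides of the control. With the GC trend removed EEF1D was at -0.23 and EEF1G at -0.24, with EEF1B2 at 0.94. EEF1A2 had 970 and 1190 counts with the siRNAs and 1952 in the control. EEF1E1, also called AIMP3, a scaffold of tRNA synthetases, had 861 and 808 counts with the siRNAs and 554 in the control. With the GC trend removed EEF1E1 was at 0.049. EEF1G shares exon bases with AP002990.1, which had 135 and 221 counts with the siRNAs and 1393 in the control, and the sum of both gave log2 fold changes of -0.80 and -0.48.

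EEF2 had 23729 and 30189 counts with the siRNAs and 42255 in the control (log2 fold change -0.66 ± 0.20 SE, edgeR adjusted p = 0.143). EEF2K, the kinase that inactivates eEF2, had 994 and 987 counts with the siRNAs and 836 in the control (log2 fold change 0.24 ± 0.22 SE, edgeR adjusted p = 0.507). EEF2KMT, a methyltransferase of eEF2, had 105 and 148 counts with the siRNAs and 159 in the control. As measured, the factor and its kinase lay on opposite sides of the control in both siRNA libraries, but EEF2 was at 0.012 with the GC trend removed. The 3 methyltransferases of eEF1A in the table were low, EEF1AKMT1 with 124 and 144 counts with the siRNAs and 100 in the control, and EEF1AKMT3 with 85 and 120 counts with the siRNAs and 84 in the control.

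The members' differences followed GC content, the share of G and C bases in the longest annotated transcript. All 14 tested members under 40% GC were higher with both siRNAs, with median log2 fold changes of 0.65 and 0.52, and 8 of 9 members of at least 55% GC were lower with both, with medians of -0.66 and -0.39. Over all genes, 2031 of 2483 under 40% GC were higher with both siRNAs and 4235 of 4921 at or above 55% were lower with both. Across the 63 members Spearman's correlation of GC content with the log2 fold change was -0.77 for siRNA 1 and -0.66 for siRNA 2 (Pearson's r -0.75 and -0.55). Across 17209 genes it was -0.68 and -0.64. These are correlations across genes of the same 3 libraries, with a shared control, and genes are not independent replicates.

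With the trend of all genes on GC subtracted, the members' median log2 fold change was 0.014 and 35 of 63 lay within 0.25 of 0 with both siRNAs, against 31.6% of all genes. Before subtraction 18 did, against 14.6% of all genes. Among tested protein-coding genes, 2114 of 13251 did before it and 4861 of 13241 with a GC content after it. EEF2, at 59.9% GC, was at -0.81 and -0.52 with the siRNAs before subtraction, and at -0.040 and 0.068 after it. EEF1A2, at 64.8% GC, was at -0.99 and -0.75 before and at 0.13 and 0.094 after. EEF1D, at 60.6% GC, was at -1.15 and -0.77 before and at -0.32 and -0.14 after. EEF2 and EEF1A2 thus lay near 0 after subtraction, and EEF1D remained below it with both siRNAs.

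The members at least 1.5-fold apart from the control with both siRNAs after the subtraction were 3. EIF4A1, at 49.6% GC, had log2 fold changes of 1.54 and 2.03, and EEF1B2, at 48.5% GC, had 0.95 and 0.93. EIF5, at 41.6% GC, had -0.63 and -0.76, although its measured differences were -0.22 and -0.44. Of all genes, 7.39% were higher and 4.53% lower by that rule. Of 13241 tested protein-coding genes with a GC content, 418 were higher and 609 lower by it. EEF1A1, at 46.1% GC, had -0.90 and -0.49 after subtraction. The differences of these 4 genes were about as large after subtraction as before it, or larger.

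**Figure D3:**
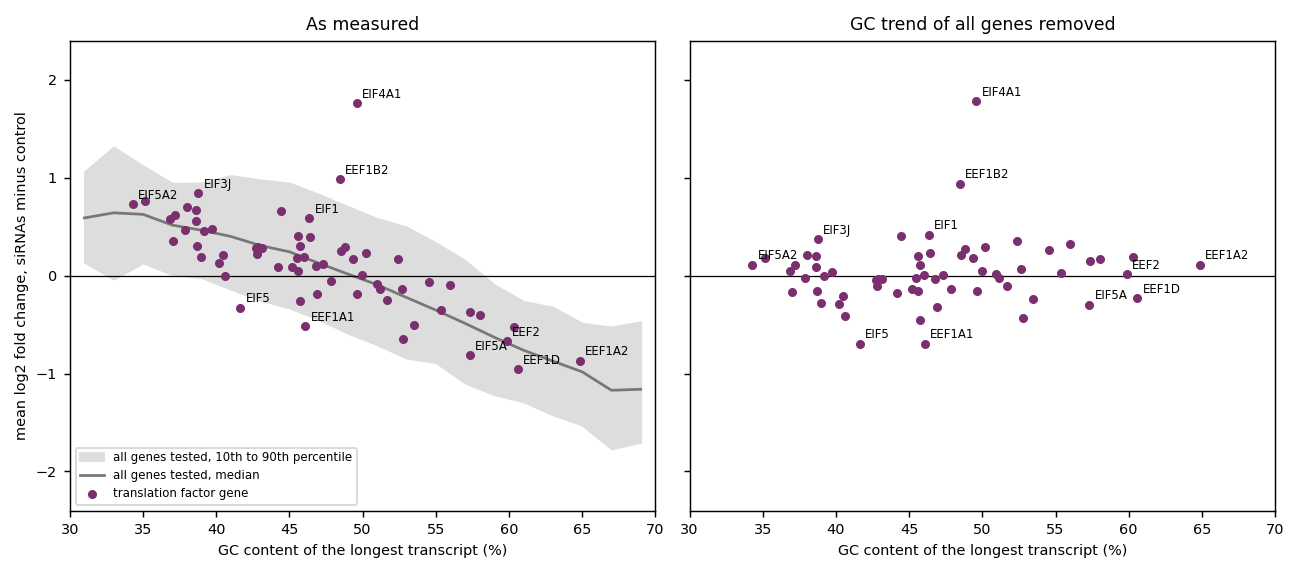
Mean log2 fold change of the DUOX2 siRNA libraries over the control (y axis) against GC content of the longest transcript (x axis, percent) for 63 members, as measured (left, with the median and the 10th to 90th percentile of all genes tested) and with the GC trend removed (right). On the left the members follow the band down, and on the right EIF4A1 and EEF1B2 stand above and EEF1A1 and EIF5 below the rest.

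Reads of several members can fit other rows of the table. Named processed copies, such as EEF1A1P5, exist for 24 members, and 74 of their 132 copies had a count. Over all libraries the copies took 1.05%, 1.05% and 0.774% of the library totals with siRNA 1, with siRNA 2 and in the control. Of 18 copies with a mean of at least 200 counts over the 3 libraries, 15 were higher with both siRNAs and 1 lower, against 41.9% and 41.6% of all genes. The copies held over 10% of the counts of gene and copies in the control for 10 members.

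EEF1A1 (ENSG00000156508, chromosome 6, 73515750 to 73523797) was the extreme case. Its own row had 21683 counts with siRNA 1, 29221 with siRNA 2 and 35769 in the control (log2 fold change -0.50 ± 0.22 SE, edgeR adjusted p = 0.213). Its 39 named copies together had 176916 and 170277 counts with the siRNAs and 117297 in the control. The gene row was lower and the sum of its copies higher with both siRNAs. Gene and copies summed to 198599 and 199498 counts with the siRNAs and 153066 in the control, a log2 fold change of 0.39 with siRNA 1 and 0.34 with siRNA 2, so the direction of EEF1A1 depends on which rows are counted. EEF1A1P5, on chromosome 9, alone had 135802 and 129861 counts with the siRNAs and 89808 in the control. EEF1A1P13, on chromosome 5, had 10461 and 7585 counts with the siRNAs and 3670 in the control. The copies took 89.1% and 85.4% of the sum with the siRNAs and 76.6% in the control.

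The coding stretch from position 264 to 323 shows how close the copies are. Capitals mark bases that differ from EEF1A1.
EEF1A1: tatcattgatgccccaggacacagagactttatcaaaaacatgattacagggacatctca
EEF1A1P5: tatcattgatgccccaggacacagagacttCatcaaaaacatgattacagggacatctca
EEF1A1P6: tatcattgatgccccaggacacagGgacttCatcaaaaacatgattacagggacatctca
EEF1A1P13: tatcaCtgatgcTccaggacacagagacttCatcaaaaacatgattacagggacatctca
EEF1A2: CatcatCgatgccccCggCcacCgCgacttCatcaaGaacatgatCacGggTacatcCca
Over the whole coding sequence EEF1A1P5 was 99.7% identical to EEF1A1 and shared 85.0% of its windows of 50 bases, EEF1A1P6 99.5% and 74.2%, and EEF1A1P13 98.1% and 32.6%. EEF1A2, the functional paralog, was 78.9% identical and shared none. How the counting treated reads that fit several places is not given in the sources used here, so the division between EEF1A1 and its copies is uncertain.

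For EIF4A1 both copies and overlapping genes mattered. The read-through gene SENP3-EIF4A1, which shares exons with it, had 2172 counts with siRNA 1, 208 with siRNA 2 and 5760 in the control, the opposite order to EIF4A1. AC016876.2, another overlapping gene, had 826 and 942 counts with the siRNAs and 251 in the control. Summed over the 3 overlapping rows the counts were 5597 and 4973 with the siRNAs and 6934 in the control, log2 fold changes of -0.29 and -0.52. The sum over the locus was thus below the control although the row of EIF4A1 was above it. Its 13 named copies had 4282 and 6180 counts with the siRNAs and 3609 in the control. With copies and overlapping genes all together the counts were 9879 and 11153 with the siRNAs and 10543 in the control, log2 fold changes of -0.075 and 0.043. The size and direction of the difference thus depend on which rows are counted.

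The stretch from position 107 to 166 of the coding sequence shows EIF4A1 with its most counted copy, on chromosome X, and its paralog, with differing bases in capitals.
EIF4A1: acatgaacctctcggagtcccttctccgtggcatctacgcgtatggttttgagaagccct
EIF4A1P10: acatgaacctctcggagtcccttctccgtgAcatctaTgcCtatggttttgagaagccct
EIF4A2: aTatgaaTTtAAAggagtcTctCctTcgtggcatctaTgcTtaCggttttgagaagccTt
EIF4A1P10 was 97.1% identical to EIF4A1 over the coding sequence and shared 33.5% of its windows of 50 bases, while EIF4A2 was 78.4% identical and shared none.

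EEF1B2 kept its direction and size. With its 8 named copies it had 12223 and 12310 counts with the siRNAs and 6487 in the control, log2 fold changes of 0.93 and 0.89. EIF4E summed with its 5 copies had 1997 and 2086 counts with the siRNAs and 1311 in the control, a log2 fold change of 0.63 with each siRNA, larger than that of its own row. EIF2S3 with its near-identical EIF2S3B gave 0.28 and 0.30. Of the 24 members with copies, EEF1A1 was the one whose mean difference changed sign when the copies were added.

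**Figure D4:**
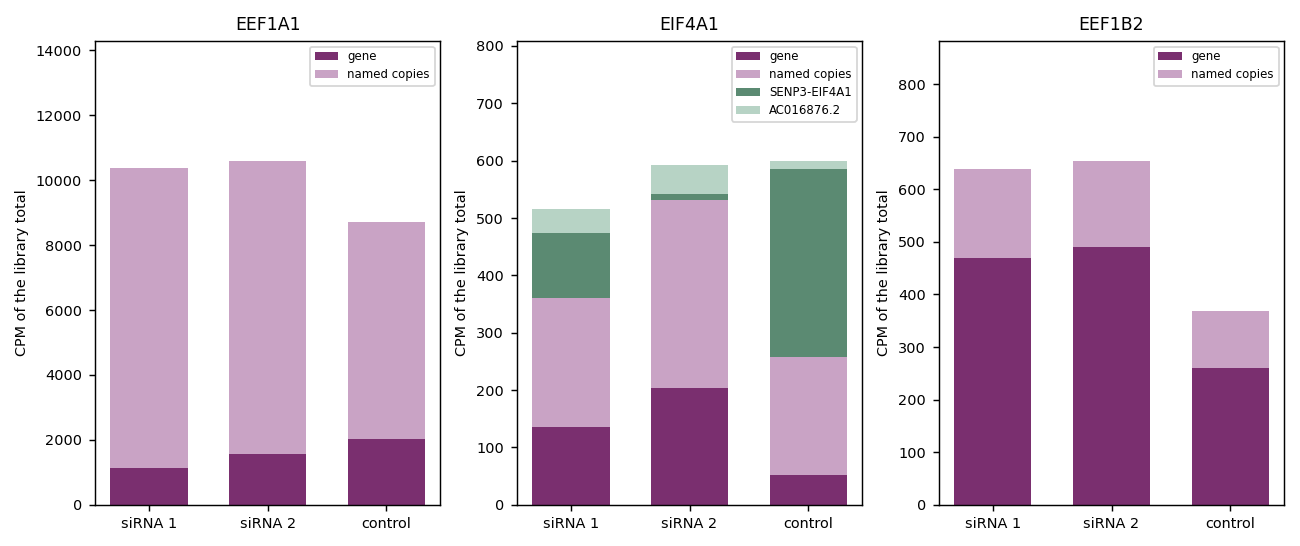
CPM of the library total (y axis) for EEF1A1, EIF4A1 and EEF1B2 in the libraries with siRNA 1, siRNA 2 and control siRNA (x axis), stacked as the gene row, its named copies and, for EIF4A1, its overlapping genes. The gene row of EEF1A1 is lower and its stack higher with both siRNAs, the stacks of EIF4A1 differ less than its gene row, and both parts of EEF1B2 are higher with both siRNAs.

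Many translation factor mRNAs begin with a C followed by a run of pyrimidines, a feature through which growth signals control their translation. RefSeq promoter windows of GRCh38.p14 were at hand for 53 members, and 13 of them (24.5%) had an annotated start with C followed by at least 4 more C or T on the sense strand, against 7.32% of 10364 tested protein-coding genes and 4.07% of all 35116 windows. The start stretches of 6 of them are shown for the members the results turn on, from 15 bases before the start to 20 bases from it on, with the run of pyrimidines in capitals.
EEF1A1 (chr6:73521013-73521047, minus strand): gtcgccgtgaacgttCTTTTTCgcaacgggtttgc
EEF1B2 (chr2:206159880-206159914, plus strand): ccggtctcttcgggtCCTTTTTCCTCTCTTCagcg
EEF2 (chr19:3985444-3985478, minus strand): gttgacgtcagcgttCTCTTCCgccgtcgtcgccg
EIF3K (chr19:38619173-38619207, plus strand): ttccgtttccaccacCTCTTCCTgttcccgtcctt
EIF3M (chr11:32583816-32583850, plus strand): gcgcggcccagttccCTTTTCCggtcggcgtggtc
EIF4A2 (chr3:186783562-186783596, plus strand): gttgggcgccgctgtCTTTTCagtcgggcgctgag
The 13 members with such a start had a median log2 fold change of 0.29, and the 37 tested members without it had a median of 0.19. Of the 13, 9 were higher and 3 lower with both siRNAs, against 41.9% and 41.6% of all genes. Of 13251 tested protein-coding genes, 5087 were higher and 6061 lower. The range of the 13 members, from -0.67 in EEF2 to 0.98 in EEF1B2, held both directions. The run of EEF1B2 was the longest at 16 bases. All these values are as measured, and medians with the GC trend removed were not computed for this split. The 3 lower members include EEF1A1, whose direction turned when its copies were added.

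The sequence CACGTG, which reads the same on both strands and is a binding site of MYC and related factors, was looked for in the same windows because MYC RNA was high in both siRNA libraries, with 2447 and 2709 counts against 281 in the control. It was in 13 of 53 members' windows (24.5%), against 12.6% of tested protein-coding genes and 7.26% of all windows. The 12 tested members with it had a median log2 fold change of 0.20 and the 38 without it 0.19. EIF3F, EIF3K and EIF4B had both this sequence and a pyrimidine start.

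Genes that act with these factors were taken from lists of release and recycling factors, poly(A) binding proteins, regulators of eIF4, the phosphatase arm of the eIF2 response, the enzymes of hypusine and diphthamide, and eIF6 release. Of 37 genes, 36 were tested and none passed edgeR's test at an adjusted p of 0.05. An unadjusted p under 0.05 was reached by 14, of which 10 were higher and 4 lower with the siRNAs, against 26.0% of all genes, 11.5% higher and 14.5% lower. With both siRNAs 24 of the 36 were higher and 10 lower, against 41.9% and 41.6% of all genes. Of 13251 tested protein-coding genes, 5087 were higher and 6061 lower. None of the 36 genes was at least 2-fold higher with both siRNAs and 1 was lower. That gene was DOHH, which completes hypusine on eIF5A, with 131 and 189 counts with the siRNAs and 397 in the control, or -1.57 and -1.10 on the log2 scale, and -0.27 and -0.12 once the GC trend was removed. The median log2 fold change of the 36 genes was 0.23, and 0.084 with the GC trend removed.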

How the data were processed

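RNA of HCT116 cells was sequenced in 3 libraries, and the deposited table gives raw counts per gene and FPKM values made by the authors for each. The labels' protocols name a TruSeq RNA kit. The submitters' processing notes name the aligner Bowtie 0.12.2 and 2 builds, GRCh38 and mm8, without saying what each was used for. Not given in the sources used here are how reads were counted, whether by strand, and what became of reads that fit more than 1 place. The table's coordinates are on GRCh38, matching GENCODE 29 exactly for 97.5% of the 58039 genes that it lists.

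Both DUOX2 siRNA libraries served as replicates of 1 group, set against the single control library. Counts were tested with edgeR 4.0.16 (R 4.3.3) by the quasi-likelihood test with TMM scaling, filterByExpr at a minimum count of 10, and Benjamini-Hochberg adjustment over 17263 genes. Residual degrees of freedom were 1 and prior degrees of freedom 4.66, and an exact permutation of 2 libraries against 1 cannot go below 0.333. For each siRNA the fold change was its log2 CPM minus that of the control, at a prior count of 2. The SE printed beside an edgeR log2 fold change was derived from the test. It is the size of the log2 fold change over the square root of the test's F statistic. The test was run on simulated counts with the same spread for all genes, the same fold change in both siRNA libraries and no GC trend. That check therefore does not cover differences between the siRNAs or the GC trend of these data.

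GC content is that of the longest GENCODE 29 transcript, and its trend was taken by lowess with a fraction of 0.3. Copies are rows named as the gene followed by P and a number, and overlapping genes share at least 10% of exon bases on the same strand. Overlaps on the opposite strand were not summed, although reads may have been counted without regard to strand. Among others, EEF2KMT shares 29.3% of its exon bases with ALG1, EEF1AKMT3 16.0% with METTL1 and EIF2B1 14.8% with DDX55. Promoter starts are from RefSeq. DESeq2 1.42.0, limma 3.58.1 on log2(FPKM + 0.1), other scalings and filters, the GC trend and the added copies were alternatives. Counting error alone is covered by the limit of 3 counts. The members, lists and tests were chosen with earlier results of these data known. Members named with values are the 2 extremes of each role list, the 5 highest by mean FPKM, and those at least 2-fold apart with both siRNAs or changed in sign by their copies. EEF1A2, EEF1E1, EEF2KMT, EIF1, EIF1B, EIF2B1, EIF2B3, EIF2S3, EIF2S3B, EIF3C, EIF3M, EIF4A2, EIF4A3, EIF4E, EIF4EBP3, EIF5AL1 and EIF5B, the copies and the overlapping genes were added after their values were seen.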

Additional observations from a re-analysis of the deposited data

How the results depend on the processing

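No member was called by edgeR under any other scaling or filter, with the GC trend removed, with protein-coding genes only, at an adjusted p of 0.10, or by limma, and DESeq2's Wald test called 2. The count at least 2-fold higher with both siRNAs was 1 as reported, 2 with protein-coding genes only and 8 at 1.5-fold. The count 2-fold lower was 0 as reported, 1 without a filter (EIF4EBP3) and 3 at 1.5-fold. Leaving out each siRNA library in turn gave 1 to 2 higher, 0 to 1 lower and a median log2 fold change of 0.15 to 0.19, as values with no test. That median, 0.17 as reported, was 0.069 with total count scaling, 0.24 with protein-coding genes only, 0.014 with the GC trend removed, 0.068 from limma on FPKM and 0.069 per kilobase of merged exons. The median of all genes, -0.0019 as reported, moved too, to -0.099 with total count scaling and -0.090 from limma. It was -0.0022 with protein-coding genes only and 0.0033 with the GC trend removed. With the GC trend removed the sign turned in 7 of 24 named members, EEF2 (0.012), EIF2AK1 (-0.038), EIF2B4 (0.020), EIF2S1 (-0.0026), EIF2S2 (-0.14), EIF3CL (0.26) and EIF4G1 (0.15). EIF2S2 was -0.0093 with total count scaling and -0.0098 by limma, and EIF3CL 0.0015 with protein-coding genes only. EEF1A1 was 0.37 with its copies added. EIF4A1 was -0.40 with its overlapping genes and -0.016 with these and its copies, alternatives that were chosen after seeing the data. The cause of these shifts was not tested, and adding rows shows only that the values depend on which rows are counted. No paired analysis was possible because there is 1 control library and its label carries no number. With 1 control library, all differences share its error, and at this depth no difference in DUOX2 was detectable.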
